A study of Rattus norvegicus with 16 samples.

Results

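The genes that carry iodide through the thyroid follicular cell and onto thyroglobulin were followed in PCCl3 cells, a differentiated rat thyroid line, after an siRNA against *Pax8* (si*Pax8*). The 7 genes were chosen by name for their step in the pathway, with earlier results of these data known: *Tshr*, *Slc5a5*, *Slc26a4*, *Tg*, *Duox1*, *Duox2* and *Iyd*. Each was found on the Agilent rat array through the RefSeq accession of its probe, and each was measured by 1 of the 41012 probes tested, among 8899 genes that could be named. RNA of si*Pax8* cells was hybridized in competition with RNA of wild type (wt) PCCl3 cells on 8 arrays, and with RNA of cells that received a scrambled siRNA (siScramble) on 8 others, with 4 biological replicates per comparison and both dye orientations of each replicate. The siRNAs were given at 10 ng/ml by lipofection, all cells grew with 1 nM TSH, insulin and other hormones in the medium, and RNA was isolated 48 h after transfection. The study's methods speak of lipofectamine-treated cells for the wt condition, the labels of wild type cells and the design scheme of no transfection, and what those cells received is not settled here. According to that scheme, each si*Pax8* sample served in both comparisons. PCCl3 is 1 clonal line, so the values describe these cells and no other follicular cells. Fewer cells that make a transcript and less transcript per cell cannot be told apart.

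TSH acts through its receptor, encoded by *Tshr*, mainly by raising cyclic AMP. Iodide enters at the basal membrane through the sodium iodide symporter (*Slc5a5*, also known as *Nis*) and leaves at the apical membrane, where pendrin (*Slc26a4*) is one route. It is bound to tyrosines of thyroglobulin (*Tg*), the large secreted precursor of thyroid hormone, with hydrogen peroxide made by the dual oxidases *Duox1* and *Duox2*. When thyroglobulin is broken down, iodotyrosine deiodinase (*Iyd*) recovers iodide from the tyrosines that did not become hormone. Pax8 is a paired-domain transcription factor known to bind regulatory regions of several of these genes.

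The RefSeq tables gave a promoter window, 250 bases before to 50 bases after the start of the gene in the assembly GRCr8, for 5 of the 7 genes; *Tg* and *Tshr* had none. The windows of *Slc5a5* (chr16:18580455-18580754, plus strand), *Slc26a4* (chr6:53873167-53873466, minus strand), *Duox2* (chr3:129698704-129699003, minus strand) and *Duox1* (chr3:129715746-129716045, plus strand) are shown because the symporter and pendrin moved in opposite directions against wt, and because the dual oxidase genes are neighbours of which *Duox2* alone passed the threshold against wt (adjusted p below 0.005). Capitals mark a match to a motif searched on both strands. 
Slc5a5: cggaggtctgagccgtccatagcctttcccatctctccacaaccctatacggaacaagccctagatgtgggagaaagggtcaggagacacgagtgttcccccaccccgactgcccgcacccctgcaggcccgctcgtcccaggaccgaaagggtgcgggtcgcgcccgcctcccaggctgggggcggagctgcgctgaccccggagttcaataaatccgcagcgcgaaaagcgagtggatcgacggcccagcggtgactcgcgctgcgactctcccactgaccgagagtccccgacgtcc 
Slc26a4: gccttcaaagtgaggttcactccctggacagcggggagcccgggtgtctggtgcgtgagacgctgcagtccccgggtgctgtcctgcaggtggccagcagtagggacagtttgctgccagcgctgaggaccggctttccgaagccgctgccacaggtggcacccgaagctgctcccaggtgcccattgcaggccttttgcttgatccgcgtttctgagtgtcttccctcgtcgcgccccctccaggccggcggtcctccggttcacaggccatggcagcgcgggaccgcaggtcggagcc 
Duox2: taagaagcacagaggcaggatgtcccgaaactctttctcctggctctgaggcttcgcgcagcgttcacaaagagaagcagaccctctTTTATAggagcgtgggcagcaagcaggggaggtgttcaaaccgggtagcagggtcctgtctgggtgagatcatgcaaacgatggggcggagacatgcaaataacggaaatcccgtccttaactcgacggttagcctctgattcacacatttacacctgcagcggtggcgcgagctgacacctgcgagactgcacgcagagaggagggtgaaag 
Duox1: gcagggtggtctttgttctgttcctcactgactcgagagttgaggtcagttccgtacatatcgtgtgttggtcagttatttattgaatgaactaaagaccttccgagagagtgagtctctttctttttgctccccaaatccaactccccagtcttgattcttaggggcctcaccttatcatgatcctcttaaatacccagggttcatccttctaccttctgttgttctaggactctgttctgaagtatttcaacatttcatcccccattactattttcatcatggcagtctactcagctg

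The motifs were AAGCGTGAC and its core GCGTGAC, which lies within it, for Pax2, Pax5 and Pax8; CTCAAG for Nkx2-1; TGACGTCA, the cyclic AMP response element; and TATAAA, the TATA box. No window of the 5 genes held either Pax motif, CTCAAG or TGACGTCA in these letters. TATAAA was found as its reverse complement in the *Duox2* window, with its first base 163 bases before the gene's start, and in the gene's own direction in the *Iyd* window (chr1:42409888-42410187, plus strand), 42 bases before it. Over all 33469 promoter windows of the same length, 0.0568% held AAGCGTGAC, 2.00% its core, 15.8% CTCAAG, 1.83% TGACGTCA and 14.2% TATAAA. These matches describe letters in a window, and enhancers outside it were not searched.

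*Pax8* RNA in si*Pax8* cells stood at 67.6% of the wt level and 84.2% of the siScramble level. Its probe (A_43_P12538, NM_031141) had log2 ratios of si*Pax8* over wt of -0.84, -0.57, -0.59 and -0.26 in replicates 1 to 4, a mean of -0.56 ± 0.24 (SD, n = 4; adjusted p = 0.000496, limma). The signs follow the dye labels, with negative values where si*Pax8* cells had less RNA. Relative to siScramble the log2 ratios of *Pax8* were -0.58, -0.29, -0.12 and -0.01, with a mean of -0.25 ± 0.25 (SD, n = 4; limma adjusted p = 0.147), which did not pass the threshold of 0.005. The ratio to wt stayed below 0 but missed the threshold when replicate 3 was left out (-0.56; limma adjusted p = 0.00576), with si*Pax8* in Cy3 alone (-0.47; 0.0185), with an offset of 0 (-0.57; 0.0146) and with Agilent's own processed intensities (-0.58; 0.0132). In replicates 3 and 4 of the siScramble comparison *Pax8* differed little between the channels. By immunoblot the study reports less Pax8 protein in si*Pax8* cells than in both controls, a measure not analysed here. The remaining transcription factors of the thyroid list that could be named, *Hhex* and *Foxe1*, were well above background on all 16 arrays, as were 6 of the 7 iodide genes in both channels. Of the markers of other cells, 2 of 8 for C cells (*Calca* and *Ret*), 1 of 6 for fibroblasts (*Col1a2*), 0 of 3 for endothelium and 1 of 4 for leukocytes (*Cd68*) were above background on all arrays. Relative to wt, *Cd68* rose by 0.30 ± 0.12 on the log2 scale (SD, n = 4; limma adjusted p = 0.000829). The part of these markers in the results was not tested.

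Relative to wt cells, 4 of the 7 genes fell (*Tg*, *Duox2*, *Slc5a5* and *Iyd*) and 1 rose (*Slc26a4*), while *Tshr* and *Duox1* did not pass the threshold. Of all 41012 probes, 8.19% were called lower and 7% higher in that comparison. Relative to siScramble cells, *Tg* alone fell and no gene of the 7 rose, where 0.849% of all probes were called lower and 1.18% higher. At an unadjusted p under 0.05, 5 were lower and 1 was higher against siScramble, where 11.9% and 8.54% of all probes were. The median log2 ratio of the 7 genes was -0.44 against wt and -0.15 against siScramble, beside medians of -0.0036 and -0.0037 over all probes. At an adjusted p below 0.005 the test of the difference between the comparisons separated *Slc5a5*, *Duox2* and *Slc26a4*, in a test that called 1.75% of all probes lower and 1.6% higher.

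**Figure D1:**
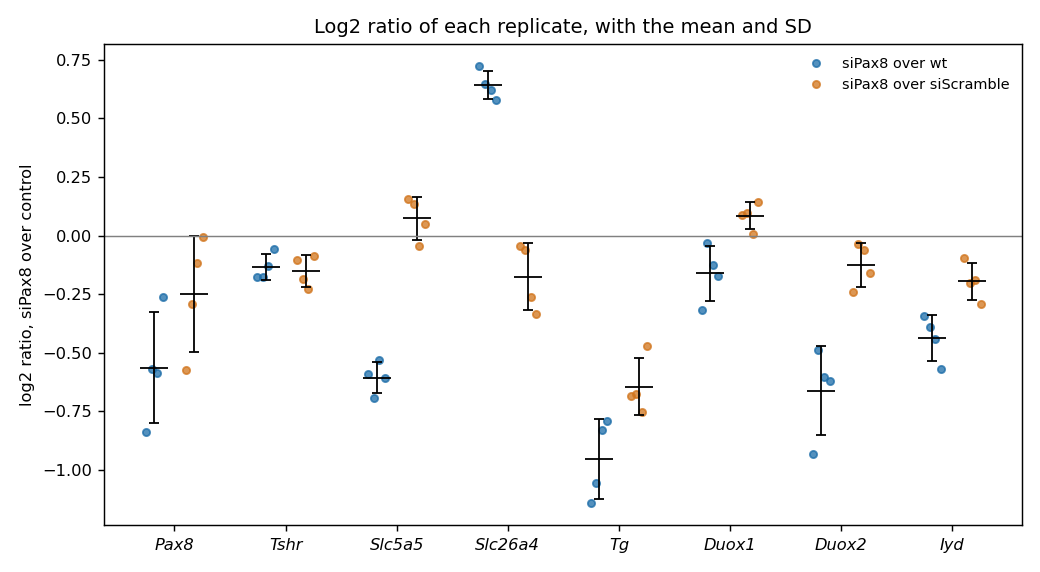
Log2 ratio of si*Pax8* over wt (blue) and over siScramble (orange) for *Pax8* and the 7 iodide genes, y axis in log2 units. Points are the 4 replicates with their dye swaps averaged, bars the mean and SD. The 4 *Slc5a5* values against wt lay between -0.69 and -0.53 and those against siScramble between -0.05 and 0.15, while *Tg* lay below 0 in all 8 values.

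The TSH receptor gene was slightly below both controls, short of the threshold. *Tshr* (A_42_P794812, NM_012888) gave log2 ratios of -0.18, -0.18, -0.13 and -0.06 against wt and of -0.10, -0.19, -0.23 and -0.09 against siScramble. All 8 values were below 0 and all lay close to it. The means were -0.13 ± 0.06 (SD, n = 4; limma adjusted p = 0.0126) and -0.15 ± 0.07 (SD, n = 4; limma adjusted p = 0.0323), or 91.1% of wt (95% interval 86.6 to 95.8) and 90.0% of siScramble (85.4 to 94.9). Neither passed the threshold, and the comparisons differed by 0.02 (95% interval -0.08 to 0.12; limma adjusted p = 0.892). With the dye swaps of a replicate taken as separate arrays and a dye term, it passed in both (limma adjusted p = 0.00352 and 0.00376). With the slide as a block, which also takes the dye swaps as separate arrays, it passed too (limma adjusted p = 0.00168 and 0.00284). Both of these fits overstate the number of replicates. With the replicate as a block it did not pass (limma adjusted p = 0.00653 and 0.00549). That fit also takes the dye swaps as separate arrays, and its consensus correlation within replicates was negative (-0.12 in each comparison). It therefore overstates the number of replicates too.

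*Slc5a5*, the symporter that concentrates iodide in the cell, was measured by A_44_P115192 (NM_052983). Its log2 ratios to wt were -0.59, -0.69, -0.53 and -0.61, a mean of -0.61 ± 0.07 (SD, n = 4; limma adjusted p = 3.36e-06) or 65.6% of the wt level (95% interval 62.3 to 69.2). Its log2 ratios to siScramble were 0.15, 0.13, -0.05 and 0.05, a mean of 0.07 ± 0.09 (SD, n = 4; limma adjusted p = 0.367) or 105% of the siScramble level (98.8 to 112). No value of one comparison reached those of the other. The difference, wt comparison minus siScramble comparison, was -0.68 (95% interval -0.80 to -0.57; limma adjusted p = 2.91e-05). The dye orientation mattered to the small ratio: against siScramble the mean was -0.08 with si*Pax8* in Cy5 and 0.22 with si*Pax8* in Cy3, where it passed the threshold (limma adjusted p = 0.002), whereas against wt it was -0.72 and -0.50.

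*Slc26a4*, which encodes the anion exchanger pendrin, was the gene of the 7 that rose. Probe A_44_P1017035 (NM_019214) gave 0.72, 0.65, 0.62 and 0.58 against wt, a mean log2 ratio of 0.64 ± 0.06 (SD, n = 4; limma adjusted p = 2.02e-06) or 156% of wt (95% interval 148 to 164). Against siScramble it gave -0.04, -0.06, -0.26 and -0.33, a mean of -0.18 ± 0.14 (SD, n = 4; limma adjusted p = 0.104). All 4 replicates were above wt, and all 4 were below siScramble, by 0.04 to 0.33. The difference between the comparisons was 0.82 (95% interval 0.67 to 0.97; limma adjusted p = 4.22e-05).

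*Tg* had the lowest mean ratio of the 7 genes in both comparisons, although with Agilent's own processed intensities *Iyd* was lower (-1.32 against -0.93 relative to wt, and -0.79 against -0.63 relative to siScramble). Its probe, A_42_P621826 (NM_030988), gave -1.14, -1.06, -0.83 and -0.79 against wt, a mean log2 ratio of -0.96 ± 0.17 (SD, n = 4; limma adjusted p = 5.06e-06) or 51.6% of the wt level (95% interval 47.2 to 56.4). Against siScramble it gave -0.69, -0.68, -0.75 and -0.47, a mean of -0.65 ± 0.12 (SD, n = 4; limma adjusted p = 0.000598) or 63.9% of the siScramble level (59.2 to 68.9). The comparisons differed by -0.31 (95% interval -0.49 to -0.12; limma adjusted p = 0.0418), which did not pass the threshold. The *Tg* ratio was below 0 on each of the 8 wt arrays and each of the 8 siScramble arrays, whichever dye the si*Pax8* sample carried. Counted from the lower end of all 41012 probes it stood at position 52 against wt and at position 23 against siScramble. Taken slide by slide (4 slides, 2 arrays per comparison on each), the means lay between -1.08 and -0.86 against wt and between -0.80 and -0.35 against siScramble. None of its spots was saturated, with log2 intensities of 15.44 to 16.58. The fall against siScramble missed the threshold when replicate 2 was left out (-0.64, limma adjusted p = 0.00874) and when replicate 3 was (-0.61, limma adjusted p = 0.00516). It also missed it with Agilent's own processed intensities (-0.63, limma adjusted p = 0.0168) and with an offset of 0 (-0.65, limma adjusted p = 0.00847). With si*Pax8* in Cy5 alone the *Tg* ratio was -0.77 and did not pass either (limma adjusted p = 0.0123).

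**Figure D2:**
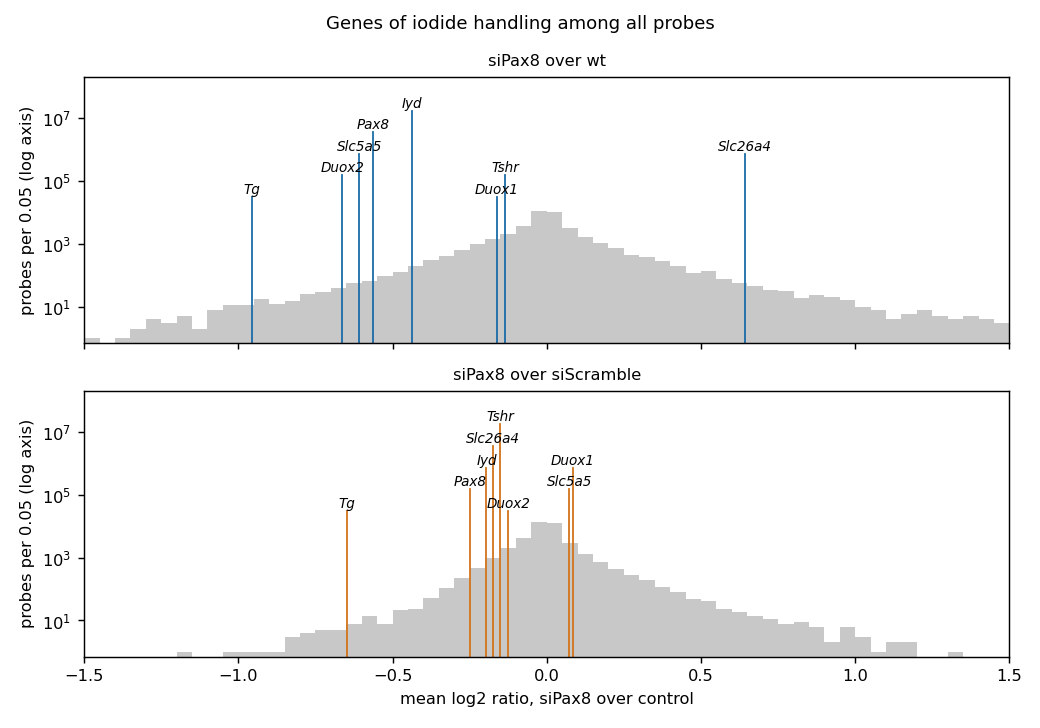
Distribution of the mean log2 ratio over all 41012 probes (grey, number of probes per bin of 0.05 on a log axis; probes beyond -1.5 or 1.5 are outside the axis), with the iodide genes and *Pax8* marked by lines whose height has no meaning. *Tg* stood at -0.96 and -0.65, far out on the lower side of both panels, and *Slc26a4* at 0.64 on the upper side of the wt panel and at -0.18 in the siScramble panel.

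Of the oxidases that supply hydrogen peroxide, *Duox2* fell against wt and *Duox1* did not pass the threshold; their ratios were not tested against each other. *Duox2* (A_43_P15456, NM_024141) gave log2 ratios to wt of -0.93, -0.49, -0.61 and -0.62, a mean of -0.66 ± 0.19 (SD, n = 4; limma adjusted p = 6.88e-05) or 63.2% of wt (95% interval 57.3 to 69.7). Its lowest value came from replicate 1, in which the array with si*Pax8* in Cy3 gave -1.19 and the other -0.68. Against siScramble *Duox2* gave -0.24, -0.04, -0.06 and -0.16, a mean of -0.13 ± 0.09 (SD, n = 4; limma adjusted p = 0.113), and the comparisons differed by -0.54 (95% interval -0.73 to -0.35; limma adjusted p = 0.00277). The fall against wt just missed the threshold with Agilent's own processed intensities (-0.76, limma adjusted p = 0.00529). The difference was short of the threshold when replicate 2, 3 or 4 was left out (-0.57, -0.54 and -0.56, with limma adjusted p = 0.0109, 0.0296 and 0.0193). It was also short with Agilent's own processed intensities (-0.61, limma adjusted p = 0.0186) and with an offset of 0 (-0.59, limma adjusted p = 0.02). Of 16 other ways of processing, the *Duox2* difference passed in 9.

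*Duox1* (A_44_P332432, NM_153739), its neighbour in the genome, gave -0.32, -0.03, -0.12 and -0.17 against wt, a mean log2 ratio of -0.16 ± 0.12 (SD, n = 4; limma adjusted p = 0.0248). Against siScramble it gave 0.09, 0.10, 0.01 and 0.14, a mean of 0.08 ± 0.06 (SD, n = 4; limma adjusted p = 0.167). These are 89.4% of wt (95% interval 83.4 to 95.9) and 106% of siScramble (101 to 111), and the difference of -0.25 did not pass (95% interval -0.37 to -0.12; limma adjusted p = 0.0218). The dual oxidases are paralogs, and how far either probe takes up the transcript of the other was not tested.

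*Iyd*, the deiodinase that recycles iodide, was measured by A_43_P21810 (NM_001025000). Its log2 ratios to wt were -0.34, -0.39, -0.44 and -0.57, a mean of -0.44 ± 0.10 (SD, n = 4; limma adjusted p = 5.67e-05) or 73.8% of wt (95% interval 69.3 to 78.6). Its log2 ratios to siScramble were -0.10, -0.20, -0.19 and -0.29, a mean of -0.20 ± 0.08 (SD, n = 4; limma adjusted p = 0.0178), with all 4 replicates below 0. That is 87.3% of siScramble (82.4 to 92.5), and the difference between the comparisons was -0.24 (95% interval -0.37 to -0.12; limma adjusted p = 0.0199). Its log2 intensities were low, at 6.67 to 7.28, and its si*Pax8* channel was not well above background on 1 of the 8 siScramble arrays. The ratios moved with the background treatment. The ratio to wt went to -0.66 without correction, -0.80 with an offset of 0 and -1.32 with Agilent's own processed intensities. The ratio to siScramble went to -0.36 (where it passed, limma adjusted p = 0.00306), -0.38 and -0.79, and the difference between them to -0.30, -0.41 and -0.53. The offset of 50 used here draws ratios of dim spots towards 0, and the direction was the same in each. The difference passed with the replicate block, here a term for the replicate number in the fit to 8 dye-averaged values (limma adjusted p = 0.00273). It also passed without quantile normalization (-0.32, limma adjusted p = 0.00448) and with the authors' normalized values (-0.32, limma adjusted p = 0.0044).

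The log2 intensities of the channels show on which side the comparisons differ. For *Slc5a5* they were 14.11 ± 0.06 in wt, 13.51 ± 0.07 and 13.53 ± 0.05 in si*Pax8* cells on the wt and siScramble arrays, and 13.46 ± 0.10 in siScramble cells (SD, n = 4 each). The wt samples stood alone at 14.04 to 14.19, and siScramble overlapped with si*Pax8*. *Slc26a4* had the reverse order, with 9.32 ± 0.05 in wt, 9.96 ± 0.03 and 9.90 ± 0.08 in si*Pax8* cells and 10.07 ± 0.13 in siScramble cells (SD, n = 4 each). The wt samples again stood apart, and siScramble at 9.93 to 10.25 overlapped with si*Pax8* at 9.80 to 10.00.

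*Duox2* had 9.58 ± 0.17 in wt, 8.92 ± 0.03 and 8.91 ± 0.05 in si*Pax8* cells and 9.03 ± 0.08 in siScramble cells (SD, n = 4 each), so that siScramble, at 8.93 to 9.13, lay below every wt sample and overlapped with si*Pax8*, which reached 8.98, in its lowest sample. *Tg* was ordered differently, with 16.49 ± 0.10 in wt and 16.31 ± 0.12 in siScramble cells, whose ranges met at 16.39, and both above si*Pax8* cells at 15.53 ± 0.08 and 15.67 ± 0.03 (SD, n = 4 each). For *Iyd* siScramble cells stood between the others, with 7.25 ± 0.05 in wt, 7.003 ± 0.062 in siScramble and 6.82 ± 0.07 and 6.81 ± 0.10 in si*Pax8* cells (SD, n = 4 each), and no ranges of these 3 conditions overlapped. *Tshr* had 8.16 ± 0.05 in wt and 8.13 ± 0.07 in siScramble cells, whose ranges overlapped, against 8.03 ± 0.06 and 7.98 ± 0.03 in si*Pax8* cells (SD, n = 4 each). *Duox1* had its highest level in wt (8.53 ± 0.12), while siScramble (8.30 ± 0.04) and si*Pax8* cells (8.37 ± 0.04 and 8.38 ± 0.08) overlapped (SD, n = 4 each), and the highest si*Pax8* value, 8.45, passed the lowest wt value, 8.43.

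Since the comparisons share the si*Pax8* samples, the difference between them stands for siScramble over wt, which no array compared directly. As such it put siScramble cells at 62.4% of the wt level for *Slc5a5*, 68.9% for *Duox2* and 176% for *Slc26a4*. For *Tg* the same reading gave 80.7%, for *Iyd* 84.5%, *Duox1* 84.4% and *Tshr* 101%, none of which passed the threshold. *Iyd* passed it with the replicate block. The *Tg* value does not come from the controls alone. Its si*Pax8* log2 intensities were 15.44 to 15.60 on the wt arrays and 15.64 to 15.71 on the siScramble arrays, a mean difference of -0.14. The siScramble level minus the wt level was -0.17.

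**Figure D3:**
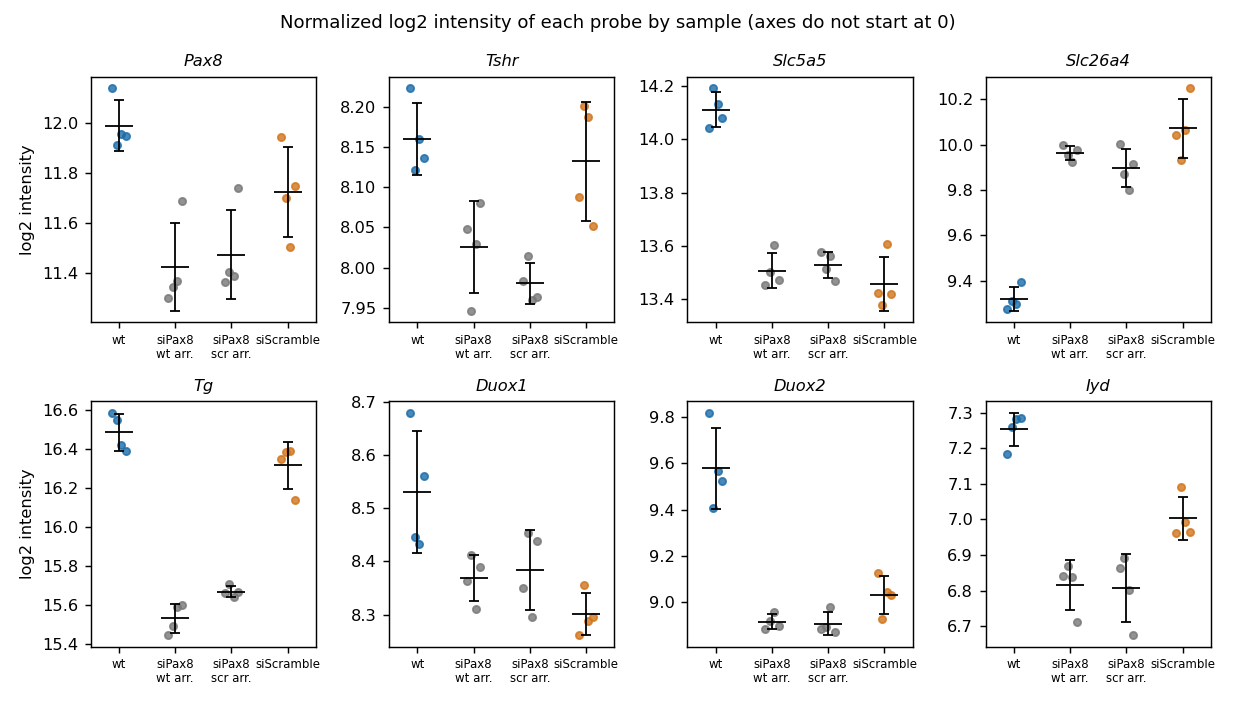
Normalized log2 intensity of *Pax8* and the 7 iodide genes in wt cells (blue), si*Pax8* cells (grey, separately for the arrays shared with wt and with siScramble) and siScramble cells (orange), with 4 replicates, the mean and the SD in each column. Each panel has its own y axis, and levels of different probes cannot be compared. For *Slc5a5* the wt samples stood at 14.04 to 14.19 and all values of the other columns at 13.38 to 13.60.

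The genes around this pathway were taken list by list. A gene counted as called when each of its probes passed, which held for 9.41% of the 8899 named genes as lower and 7.19% as higher against wt, and for 1.25% and 1.62% against siScramble. Of 18 measured genes that carry the TSH signal to cyclic AMP, 3 fell against wt and none rose, with a list median of -0.03, and none was called against siScramble. They were *Crem*, a cyclic AMP-responsive transcription factor (-0.75 ± 0.08), *Gna11*, a G protein alpha subunit (-0.37 ± 0.05), and *Pde4b*, a phosphodiesterase that degrades cyclic AMP (-0.16 ± 0.03; SD, n = 4 each; adjusted p from limma of 1.65e-06, 2.93e-05 and 0.0032). *Crem*, like *Slc5a5*, was close to 0 against siScramble (-0.04 ± 0.05), with a difference of -0.71 between the comparisons (limma adjusted p = 1.4e-05).

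Among 10 measured genes for channels, pumps and scaffolds that support iodide transport, 1 fell against wt, the scaffold gene *Nherf1* (-0.21 ± 0.10; SD, n = 4; limma adjusted p = 0.00436), and none was called against siScramble. Of 5 measured partners of hydrogen peroxide metabolism, 1 fell against wt, *Prdx4*, a peroxiredoxin of the endoplasmic reticulum (-0.29 ± 0.05; SD, n = 4; limma adjusted p = 0.000142), and none against siScramble. The thyroid transcription factors *Hhex* (-0.53 ± 0.08) and *Foxe1* (-0.19 ± 0.08) both fell against wt (SD, n = 4 each; adjusted p from limma of 9.56e-06 and 0.00414). Neither was called against siScramble (-0.05 ± 0.09 and -0.18 ± 0.16, SD, n = 4 each). The difference between the comparisons was -0.48 for *Hhex* (limma adjusted p = 0.000378) and -0.01 for *Foxe1* (limma adjusted p = 0.971).

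The list for folding, storage and uptake of thyroglobulin held genes in both directions, with 3 of 14 measured genes lower and 3 higher against wt. *Lrp2*, which encodes the endocytic receptor megalin, fell against both controls (-0.72 ± 0.11 and -0.37 ± 0.10; SD, n = 4 each; adjusted p from limma of 4.24e-06 and 0.00293). *Pdia3*, a disulphide isomerase, fell against wt (-0.47 ± 0.27; SD, n = 4; limma adjusted p = 0.00271). The lysosomal proteases *Ctsl* (0.87 ± 0.09) and *Ctsd* (0.60 ± 0.06) rose against wt (SD, n = 4 each; adjusted p from limma of 1.28e-06 and 3.49e-06). Against siScramble *Ctsl* was at -0.02 ± 0.14 and *Ctsd* at 0.34 ± 0.13 (SD, n = 4 each), and neither passed. The difference between the comparisons was 0.89 for *Ctsl* (limma adjusted p at most 5.4e-05) and 0.25 for *Ctsd* (limma adjusted p = 0.0268). Beyond the genes that the naming rule gave, and named after their values were seen, *Ctsb* rose and the chaperone gene *Hspa5* fell against wt, while *Hspa5* and *Pdia4* fell with *Lrp2* against siScramble.

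Of 7 genes for deiodination, binding and export of the hormone, 2 fell against wt and 1 rose against siScramble. *Dio1*, a deiodinase that activates thyroxine, fell against wt by both of its probes (-0.80 ± 0.04; SD, n = 4; limma adjusted p at most 1.36e-06). Against siScramble *Dio1* was at -0.24 ± 0.06 and did not pass (SD, n = 4, limma adjusted p at least 0.00947). The *Dio1* difference between the comparisons was -0.56 (limma adjusted p at most 0.000249). *Crym*, which encodes a cytosolic protein that binds triiodothyronine, fell against wt (-1.01 ± 0.15) and rose against siScramble (0.38 ± 0.09; SD, n = 4 each; adjusted p from limma of 1.96e-06 and 0.00225). Its difference between the comparisons was -1.38 (limma adjusted p = 2.08e-06).

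Interferon response genes rose against wt. Against wt 16 of 20 measured genes were called higher, with a list median of 1.07, and against siScramble 2 of 20, with a median of 0.22. *Oas1a*, *Mx2*, *Irf7* and *Rsad2* had log2 ratios to wt of 2.93 ± 0.44, 2.86 ± 0.53, 2.36 ± 0.09 and 2.33 ± 0.25 (SD, n = 4 each; adjusted p from limma of at most 0.000138). Their part in the results for the iodide genes was not tested. Of 10 housekeeping genes 2 were called lower and 2 higher against wt, and *Hprt1* was called higher by all 4 of its probes against both controls (1.29 ± 0.07 and 0.75 ± 0.05; SD, n = 4 each; adjusted p from limma of at most 2.81e-07 and 0.00015).

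**Figure D4:**
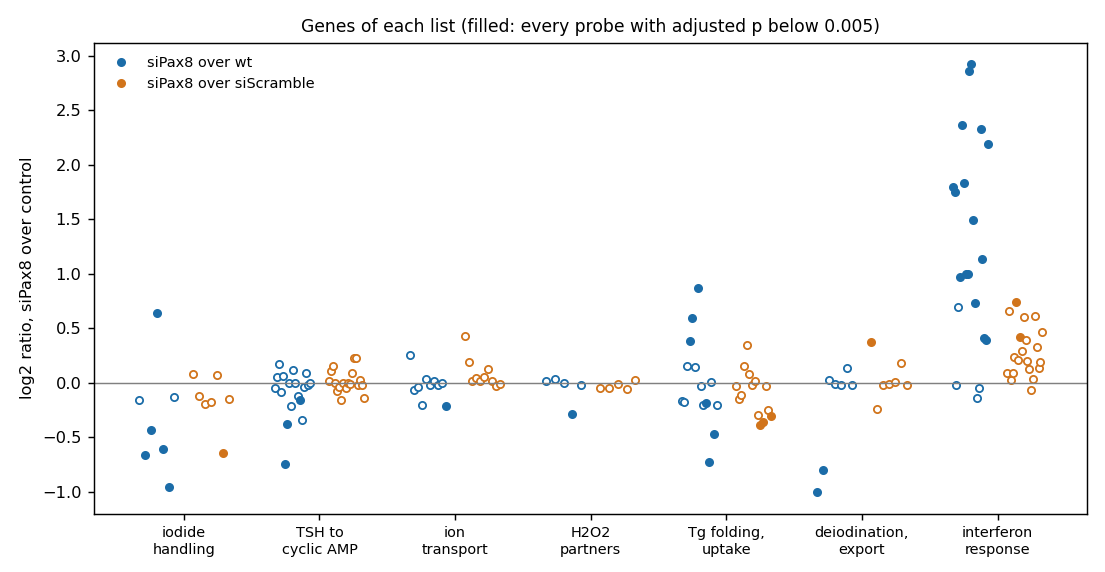
Log2 ratio of si*Pax8* over wt (blue) and over siScramble (orange) for each measured gene of the iodide genes and 6 surrounding lists, y axis in log2 units. Filled points had an adjusted p below 0.005 in every probe. Of the interferon list 16 of 20 genes were filled against wt and 2 against siScramble, against 5 and 1 of the 7 iodide genes.

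The named genes whose 8 dye-averaged log2 ratios lay nearest to those of *Tg*, among 8892 genes, were the ammonium transporter gene *Rhbg*, the connexin gene *Gja4* and *Pdzk1ip1*, at root mean square distances of 0.11, 0.13 and 0.16 on the log2 scale. Their mean log2 ratios lay between -0.93 and -0.91 against wt and between -0.72 and -0.61 against siScramble. Nearest to *Slc5a5* were *Il2rb*, an interleukin receptor chain, the growth factor gene *Igf2* and the lipid transporter gene *Abca7* (0.08, 0.08 and 0.10), with means of -0.63 to -0.59 against wt and 0.00 to 0.11 against siScramble. Nearest to *Slc26a4* were *Thrsp*, a gene known to respond to thyroid hormone, the stress-induced transcription factor gene *Atf3* and *Flcn*, which encodes folliculin (0.13, 0.13 and 0.15), with means of 0.52 to 0.54 against wt and -0.29 to -0.02 against siScramble. These lists describe likeness over 8 values that share si*Pax8* samples according to the design scheme.

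**Figure D5:**
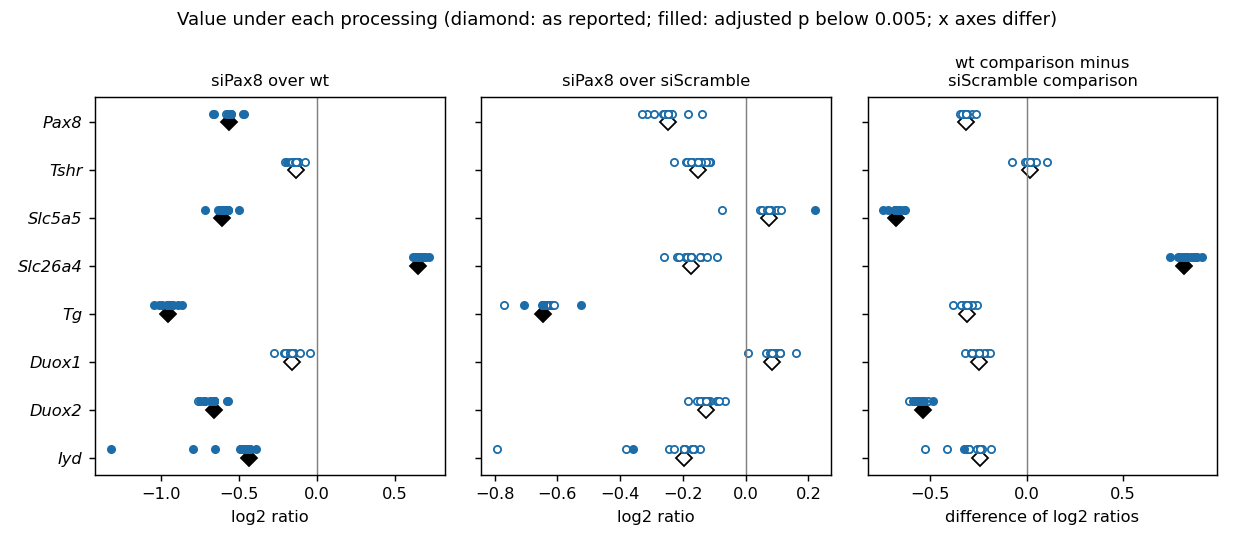
Log2 ratio of each gene against wt, against siScramble, and their difference, as reported (diamond) and under each of 18 other ways of processing (circles; 16 for the difference); filled symbols had an adjusted p below 0.005. *Slc5a5*, *Slc26a4* and *Tg* were filled throughout the wt panel, *Duox1* nowhere, and *Iyd* ranged from -1.32 to -0.39 against wt.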

How the data were processed

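The 2-colour arrays of si*Pax8* cells against wt and siScramble cells were analysed. The binding, reporter, immunoblot and qRT-PCR measurements of the study were not. Its qRT-PCR used *Nis* as a Pax8-dependent positive control, and the array values of *Slc5a5* were not set against it. The authors deposited scanner files with mean and local background intensities per spot, background-subtracted and dye-normalized intensities from Agilent's software, their log10 ratios of Cy5 over Cy3 (not used here) and, for the whole series, normalized log2 ratios of control over si*Pax8*. These correlated from -0.999 to -0.993 with the ratios used here and had column medians between -0.000112 and 0.0068. Their scale and direction follow from that comparison; any centring is not known. The headers name Feature Extraction 10.1.1.1, a finer scan and a later version than the study's methods. Of 45018 spots per array, 1639 were controls. Among the remaining spots, 112 to 215 were outliers, at most 2 were saturated and 52.0% to 60.8% were well above background in a channel. With 4 replicates per comparison the number of arrays limits the precision.

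Mean intensities were corrected by normexp (offset 50) and normalized by loess within arrays, with control and outlier spots at weight 0, then by quantiles between arrays (R 4.3.3, limma 3.58.1, statmod 1.5.0, data.table version 1.17.8). Spots of a probe and dye swaps of a replicate were averaged, since each pair of same-numbered arrays deviated together (r of 0.12 to 0.51), although replicate 2 against wt correlated more with another number (0.20 against 0.12) and the consensus correlation within replicates over all probes was negative (-0.12 against both controls). Each comparison was fitted to 4 values per probe with lmFit and eBayes, and the difference to 8 values; Benjamini-Hochberg adjustment covered all 41012 probes, with the study's threshold of 0.005. Errors are SD over replicates and intervals are 95% from the moderated fit. The scripts were tested on simulated data. RefSeq accessions named 10768 probes; 30244 had no name here. Named are the 7 genes and *Pax8*, of each list at most the 4 genes past the threshold in either comparison with the largest mean absolute log2 ratio, and the 3 genes nearest to *Tg*, *Slc5a5* and *Slc26a4*. The genes and lists were chosen with earlier results of these data known. The arrays lay on 4 slides, with 2 arrays of each comparison on each slide. Other steps of hormone synthesis are not reported here.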

Additional observations from a re-analysis of the deposited data

Results flagged for a closer look

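By the test of the difference itself (limma on 8 values, wt comparison minus siScramble comparison), the effect of si*Pax8* depended on the control for 3 of the 7 genes. The differences were -0.68 for *Slc5a5*, 0.82 for *Slc26a4* and -0.54 for *Duox2*. Under 16 other ways of processing, *Slc5a5* and *Slc26a4* passed in each and *Duox2* in 9. The 4 ratios against wt did not overlap the 4 against siScramble for these genes, nor for *Tg*, *Duox1* and *Iyd*, whose differences did not pass. How many of all probes lacked such overlap was not counted, so this does not set these genes apart. The *Pax8* log2 intensity of si*Pax8* cells on the siScramble arrays had 1 replicate far from the others, replicate 4 at 11.74 against 11.37 to 11.41, a gap of 0.892 of the whole range. Its value on the wt arrays, 11.69, was also the highest of the 4. Of 48 groups of 4 values examined this was the 1 past the Dixon critical value, which chance passes in about 1 of 20 groups.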

How the results depend on the processing

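Under the 18 alternatives, 3 to 5 of the 7 genes were called lower against wt and 1 higher; *Tg*, *Slc5a5*, *Iyd* and *Slc26a4* passed in each, *Duox2* in 17. Against siScramble the count of genes called lower was 1 and became 0 with Agilent's processed intensities, with a normexp offset of 0 and with si*Pax8* in Cy5 alone, 2 without background correction and with a dye term over 8 arrays, and 3 with the slide as a block; leaving out a replicate gave 0 to 1. The fits with a dye term or the slide as a block take the dye swaps of a replicate as separate arrays and so overstate the number of replicates. The same holds for the replicate block within a single comparison. For the difference, the replicate block was another model, with a term for the replicate number in the fit to 8 dye-averaged values. The count called higher against siScramble became 1 with si*Pax8* in Cy3 alone. In the difference, 2 genes called lower became 1 with Agilent's intensities, with an offset of 0 and with either dye orientation alone, 3 with loess alone, with Aquantile, with the authors' normalized values and with the replicate block, and 1 to 2 when a replicate was left out. *Slc5a5* against siScramble turned to -0.075 with si*Pax8* in Cy5 alone, and the *Tshr* difference to -0.074 there, to -0.0046 with loess alone or with Aquantile, and lay between -0.0093 and 0.047 when a replicate was left out; none of these passed the threshold. With the replicate block, *Iyd* (limma adjusted p = 0.00273) and *Pax8* (0.00194) passed in the difference; the same-number correlations between comparisons were 0.39, 0.17, 0.04 and 0.56, so the numbers do not settle the pairing. Counts over all probes moved most against siScramble, from 348 lower and 483 higher to 5 and 24 with Agilent's intensities, 24 and 60 with an offset of 0, 1799 and 1671 with si*Pax8* in Cy3 alone, 803 and 889 with the replicate block and 34 and 82 without replicate 2. Against wt the balance of 3357 lower and 2871 higher turned to 2985 and 3358 with loess alone or Aquantile, and the counts fell to 620 and 722 with an offset of 0 and 798 and 956 with Agilent's intensities, and in the difference from 718 and 655 to 130 and 152 with an offset of 0, and rose to 1101 and 1085 with the replicate block. The cause was not tested. Taking the brightest probe of a gene in place of the mean could not change the 7 genes, since each has 1 probe named through RefSeq. It added 1 called gene to several lists: lower against wt for TSH signalling (4) and thyroglobulin folding (4), higher for ion transport (1 against each control), peroxide partners (1 against wt) and interferon response (17 and 3), and lower for C cell markers (1 against each control).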
